A study of Mus musculus with 2 samples.

Results

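The genes described here are 36 genes of the lysosome: cathepsins and other proteases, sugar-cleaving and sulfate-removing hydrolases, lipid-handling proteins and membrane proteins. They were chosen by name, and each was read by its brightest probe set, the one with the highest mean of both arrays among probe sets that the platform annotation gives to that gene alone. Such a probe set was found for 35 of the 36 genes, all but Cd63, a tetraspanin of late endosomes, out of 18193 genes with a probe set of their own. All 35 passed the filter on low signals, and so did 11693 genes in all. RNA came from precancerous mouse liver. On both arrays the hepatocytes bore a Pik3ca transgene, which activates phosphoinositide 3-kinase signalling. One array was of liver with wild-type Kdm3a (Pik3caTg;Kdm3aWT) and the other of liver with Kdm3a knocked out (Pik3caTg;Kdm3aKO). Kdm3a encodes a histone demethylase, and no array was of liver without the transgene. The age and sex of the mice, the promoter of the transgene and whether animals were pooled were not given in the labels or notes used here.

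With 1 array per genotype, no test, p-value or error between animals was possible, and each difference below is one between 2 arrays, with no replicate check. Every ratio is the log2 of knockout over wild-type signal, so a negative value means a lower signal in the knockout. Signals below a floor of 46.5 were raised to it before taking a ratio; no listed gene's brightest probe set lay below it. The single yardstick within these data was the spread of log2 ratios between probe sets of one gene, an SD of 0.446 over 4958 genes, and it holds no error between arrays or animals. Kdm3a read 719.9 in wild-type and 61.6 in knockout liver, 8.56% of the wild-type value, by a single probe set whose place relative to the deletion is not known here. All 16 hepatocyte markers were above the floor on both arrays, with Alb, serum albumin, at 44119 and 53356.

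Lysosomes break down proteins, glycans, lipids and glycogen taken in from outside the cell or delivered by autophagy. Their soluble enzymes are made in the endoplasmic reticulum, tagged with mannose 6-phosphate and sorted through the Golgi, and a proton pump keeps the lumen acidic. Many lysosomal genes are driven by TFEB and its relatives, which are held in the cytoplasm by the nutrient-sensing kinase mTORC1. In liver, hepatocytes use lysosomes for autophagy and lipoprotein breakdown, while macrophages, including the resident Kupffer cells, are especially rich in cathepsins and endolysosomal proteins.

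Most of the lysosomal genes had a modestly lower signal in the Kdm3a knockout array, and a few had a much lower one. Of the 35 genes, 29 had a log2 ratio below 0, where 52.2% of all genes did, and 6 had one above 0, where 47.8% did. Their median log2 ratio was -0.47, against -0.02 over all 11693 genes. A difference of at least 2-fold was found for 4 of the 35, all lower: Cd68, Ctsk, Lgmn and Ctss. Of all genes, 8.96% were lower by at least 2-fold, so that the count of 4 lay near the background. None was at least 2-fold higher, where 3.83% of all genes were. At the smaller size of 1.5-fold, 14 of the 35 were lower, where 17.4% of all genes were, and 0 were higher, where 11.1% of all genes were.

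The lower median was not shared by genes of high signal in general. Among the 2339 genes of highest mean signal, the median log2 ratio was 0.12, and 38.9% of ratios were below 0. Of the listed lysosomal genes, 20 were among these 2339, and 16 of these 20 had a ratio below 0, with a median of -0.32. At least 1.5-fold lower were 7 of the 20, against 209 of the 2339.

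**Figure D1:**
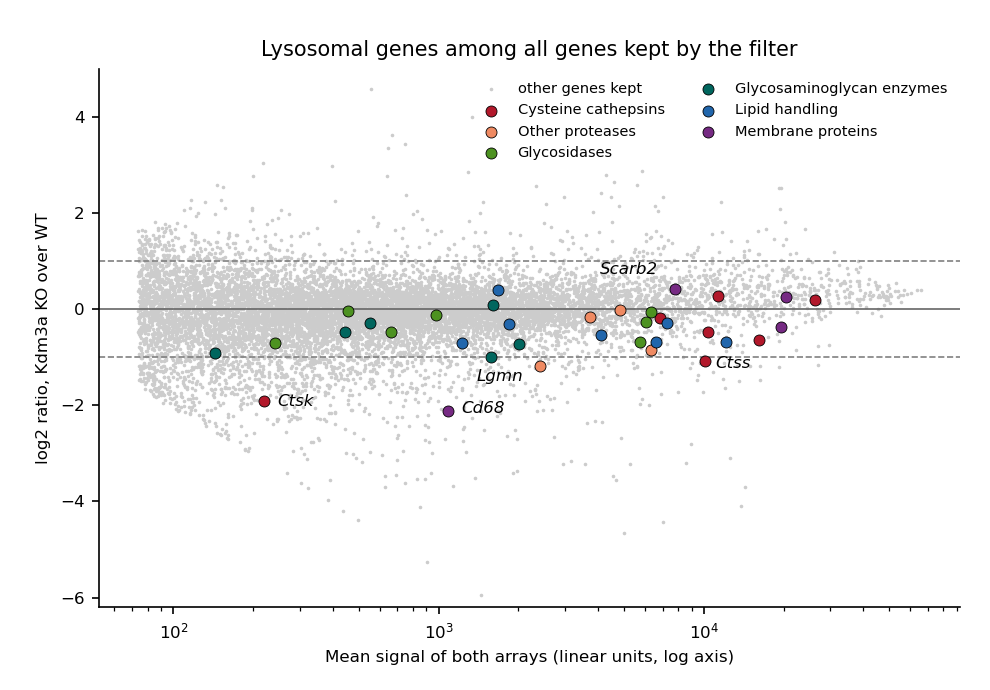
Knockout over wild-type log2 ratio (vertical axis) against the mean signal of both arrays (horizontal log axis) for the 11693 genes kept; grey points are other genes, coloured points the 35 lysosomal genes by role, and dashed lines mark 2-fold. Of the coloured points, 29 lie below 0, with Cd68 (-2.11) and Ctsk (-1.92) lowest and Scarb2 (0.43) highest.

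How the arrays were scaled moved these counts. After scaling on the poly-A control probe sets (poly-A scaling), the median of all genes was 0.16, with 6.63% of genes lower and 6.05% higher by at least 2-fold. Under that scaling 23 of the 35 lysosomal genes were below 0 and 2 of them, Cd68 and Ctsk, were at least 2-fold lower. After scaling on the hybridisation controls (hybridisation scaling), the median of all genes was -0.16, with 10.9% of genes lower and 2.62% higher by at least 2-fold. There 30 of the 35 lysosomal genes were below 0 and 6 were at least 2-fold lower, Arsb and Sgsh being the further ones. The count of lysosomal genes lower by at least 1.5-fold was 7 after poly-A scaling, where 12.6% of all genes were, and 18 after hybridisation scaling, where 22.2% were. The distance of the lysosomal median from the median of all genes was -0.45 as deposited. Scaling on controls or array medians moves nearly all ratios by one constant, so it could hardly change this distance. The distance was -0.39 after quantile normalization and -0.37 when a gene's kept probe sets were averaged. Over all settings tried it ranged from -0.47, with the floor at the 60th percentile, to -0.32, with a filter at the 70th percentile.

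The promoters of many of these genes hold the E-box letters CACGTG, the core of the element that TFEB-type factors bind, and they are shown here because the element is the best-known shared feature of lysosomal genes. RefSeq promoter windows on build GRCm38.p6 were at hand for 32 of the 36 genes, 35 windows in all, since 3 genes have 2 starts. The 250 bases before each start were searched on both strands. CACGTG stood in 11 of the 35 windows, in 11 genes, against 6.02% of 32851 windows of all genes. Printed below, on the strand of the gene, is the stretch around the copy nearest to the start, with up to 20 bases on either side and none past the start. Capitals mark CACGTG.
Lgmn, chr12:102439116-102439161, minus strand: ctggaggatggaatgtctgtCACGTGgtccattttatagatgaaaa
Sgsh, chr11:119355514-119355559, minus strand: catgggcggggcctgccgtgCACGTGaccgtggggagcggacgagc
Ctsd, chr7:142387900-142387945, minus strand: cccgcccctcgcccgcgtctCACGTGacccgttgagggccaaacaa
Gla, chrX:134601174-134601219, minus strand: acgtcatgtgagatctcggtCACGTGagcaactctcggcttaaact
Lamp1, chr8:13159126-13159160, plus strand: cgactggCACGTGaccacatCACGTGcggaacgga
Arsa, chr15:89477425-89477460, minus strand: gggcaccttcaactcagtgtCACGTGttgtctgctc
Naglu, chr11:101070001-101070046, plus strand: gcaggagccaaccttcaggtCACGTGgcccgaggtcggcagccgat
Ctsa, chr2:164833741-164833772, plus strand: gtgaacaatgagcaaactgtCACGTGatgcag
Gaa, chr11:119267803-119267848, plus strand: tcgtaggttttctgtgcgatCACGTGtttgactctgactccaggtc
Glb1, chr9:114401010-114401055, plus strand: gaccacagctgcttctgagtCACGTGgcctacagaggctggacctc
Ctsl, chr13:64370731-64370770, minus strand: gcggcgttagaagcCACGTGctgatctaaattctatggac

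The genes stand in the order of their log2 ratios, from -1.18 for Lgmn to 0.19 for Ctsl. All but Ctsl also read TCACGTG on one of the strands, a 7-letter form that contains CACGTG and stood in 3.13% of all windows. The 8-letter palindrome TCACGTGA stood in the windows of Ctsa, Ctsd and Gla and in 0.785% of all windows. The Lamp1 window held 4 copies of CACGTG, of which 2 lie in the printed stretch. The Ctsd and Gla windows held 2 copies each, with only the nearest to the start printed. The median log2 ratio of the 11 genes with CACGTG was -0.30, ranging from -1.18 to 0.19. That of the 20 measured genes whose windows lacked it was -0.56, ranging from -2.11 to 0.43. The first range lay inside the second. In Lgmn and Ctsa the letters stood before 1 of their 2 starts. Cd68, Ctsk and Ctss, 3 of the 4 genes that were at least 2-fold lower, had windows without the letters.

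The Cd68 window, that of the gene with the lowest ratio, held 2 copies of the AP-1 letters TGACTCA, which read TGAGTCA on the strand of the gene. The 200 bases before its start are printed with both in capitals.
Cd68, chr11:69666171-69666370, minus strand: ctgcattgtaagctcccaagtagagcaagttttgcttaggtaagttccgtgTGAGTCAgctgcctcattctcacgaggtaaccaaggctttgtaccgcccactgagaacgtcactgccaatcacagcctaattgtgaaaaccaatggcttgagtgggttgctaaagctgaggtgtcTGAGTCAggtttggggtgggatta
The same letters stood in the windows of 3 other listed genes, shown for comparison, and in 4.46% of all windows. In Glb1 they overlap the CACGTG printed above.
Psap, chr10:60277590-60277627, plus strand: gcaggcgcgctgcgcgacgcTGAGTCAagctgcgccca
Neu1, chr17:34931085-34931131, plus strand: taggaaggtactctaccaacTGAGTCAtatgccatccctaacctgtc
Glb1, chr9:114401005-114401051, plus strand: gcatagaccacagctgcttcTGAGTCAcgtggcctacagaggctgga
The log2 ratios of these 4 genes spread from -2.11 for Cd68 to -0.04 for Glb1. The letters GAGGAAGT, of the kind that the macrophage factor PU.1 binds, stood in the windows of Ctsc and Gla and in 2.44% of all windows. A match is a string of letters and not a measured binding site.

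Among the 7 cysteine cathepsins, papain-like proteases of the lysosome, 2 were at least 2-fold lower, where 8.96% of all genes were, 5 lay within 2-fold and the median log2 ratio was -0.47. Ctsk, a collagen-cleaving cathepsin best known from osteoclasts, read 348.2 in wild-type and 92.3 in knockout liver, which is 3.77-fold lower (log2 ratio -1.92). Its knockout signal lay within about a factor of 2 of the floor, and with the floor raised to the 60th percentile the ratio was -1.44. Ctss, which trims the invariant chain of MHC class II in antigen-presenting cells, read 13690 in wild-type and 6482 in knockout liver, or 2.11-fold lower (-1.08). Each of these genes had a single probe set. After poly-A scaling, Ctss stood at -0.89 and no longer reached 2-fold.

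Ctsz, a carboxypeptidase found in immune cells, read 19602 in wild-type and 12592 in knockout liver, a log2 ratio of -0.64. Its other 2 probe sets went the same way, at -0.95 and -0.75. Ctsb, an abundant endopeptidase of most cells, had 12087 and 8726 (-0.47), and its 3 other kept probe sets ranged from -0.98 to -0.35. Ctsc, the dipeptidyl peptidase that activates granule proteases of white blood cells, had 7224 and 6408 (-0.17). All 3 genes were thus lower by every kept probe set.

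Ctsh and Ctsl were the cathepsins with a higher signal in the knockout. Ctsh, an aminopeptidase, read 10200 in wild-type and 12346 in knockout liver (0.28), and its second probe set stood at 0.37. Ctsl, a main endopeptidase of lysosomal protein breakdown, had 24439 and 27865 (0.19). Its second and far dimmer probe set had 231.4 and 87.2, a ratio of -1.41, so that the probe sets of Ctsl disagreed in direction. No direction can be given for Ctsl from these arrays.

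The 4 other proteases all had a ratio below 0, with a median of -0.50. Lgmn, an asparaginyl endopeptidase that also matures cathepsins, read 3336 in wild-type and 1469 in knockout liver, 2.27-fold lower (-1.18). After poly-A scaling it lay just inside 2-fold. Ctsd, the main aspartic protease of the lysosome, had 8113 and 4495 (-0.85). Ctsa, a carboxypeptidase that shields beta-galactosidase and sialidase from breakdown, had 3913 and 3520 (-0.15), and its dim second probe set stood at 0.43. Tpp1, which removes tripeptides from protein ends, had 4859 and 4805 (-0.02), with -0.31 by its second probe set. The low values of this group were thus those of Lgmn and Ctsd.

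**Figure D2:**
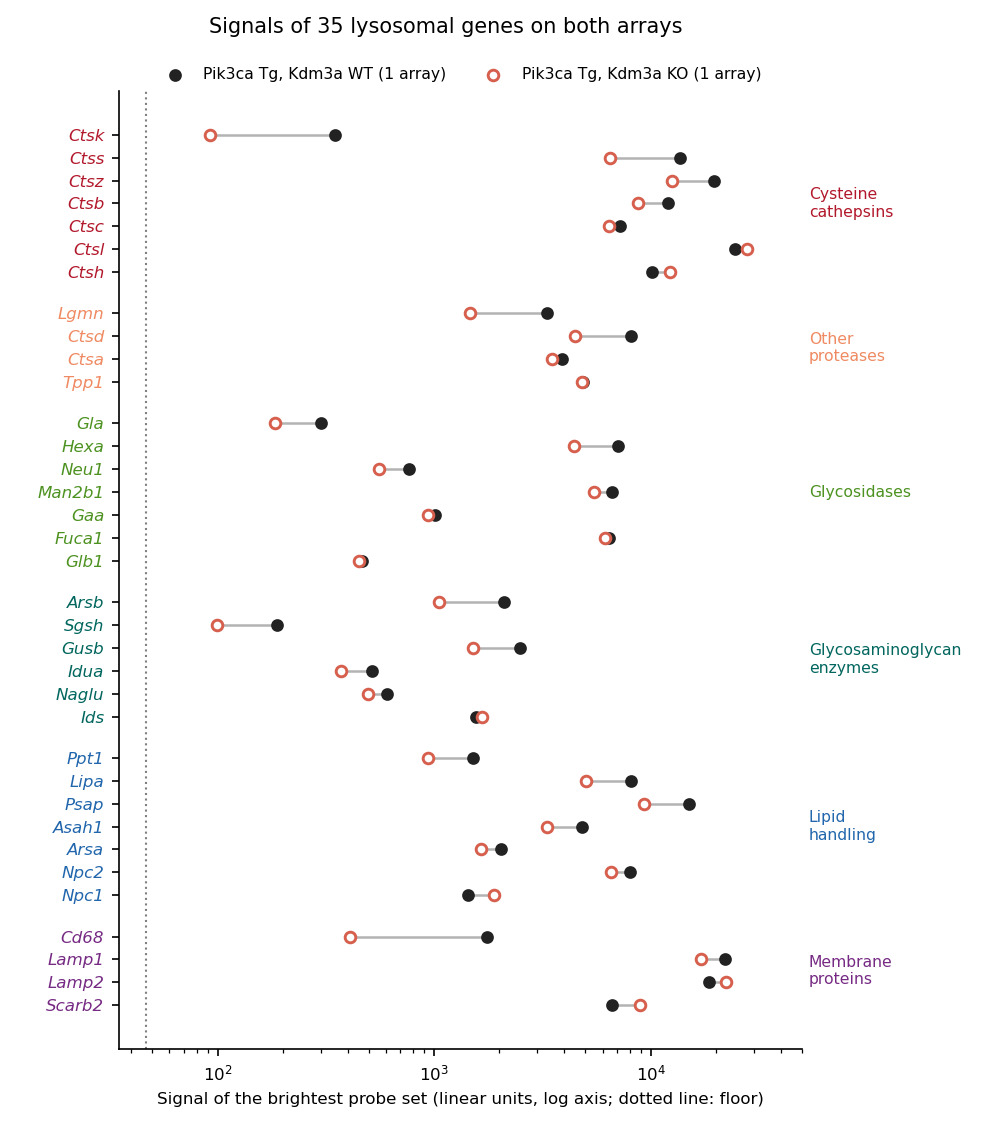
Signal of the brightest probe set of each of the 35 lysosomal genes (horizontal log axis) in the wild-type array (filled points) and the knockout array (open points), grouped by role, each point 1 array with no error bar. The longest distances are those of Cd68 (1765 to 408.1) and Ctsk (348.2 to 92.3); signals of different probe sets do not compare the levels of different genes.

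The 7 glycosidases of glycoproteins, glycolipids and glycogen had ratios from -0.69 to -0.04, all within 2-fold, with a median of -0.27. Gla, alpha-galactosidase A, which clears globotriaosylceramide, read 299.2 in wild-type and 185.0 in knockout liver (-0.69). Hexa, the alpha chain of beta-hexosaminidase, had 7103 and 4427 (-0.68). Neu1, the lysosomal sialidase, followed at 767.7 and 555.0 (-0.47), but its second kept probe set stood at 0.03. The remaining 4 differed little. Man2b1, an alpha-mannosidase, stood at -0.27, Gaa, the acid glucosidase of glycogen, at -0.11, Fuca1, a fucosidase, at -0.06 and Glb1, beta-galactosidase, at -0.04. Second probe sets of Man2b1 (0.24) and Gaa (0.27) lay on the other side of 0. When a gene's kept probe sets were averaged, the median of this group was -0.04, so the lower signal of glycosidases as a group rested on the choice of probe set.

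Of the 6 enzymes that break down glycosaminoglycans, the sugar chains of proteoglycans, 5 had a ratio below 0 and the median was -0.60. Arsb, a sulfatase of dermatan sulfate, read 2109 in wild-type and 1057 in knockout liver, 50.1% of the wild-type value and so just inside 2-fold. Its second probe set stood at -0.59. Sgsh, the sulfamidase of heparan sulfate, was the dimmest of the listed probe sets, with 187.4 and 99.4 (-0.91), or -0.55 with the floor at the 60th percentile. Gusb, beta-glucuronidase, had 2489 and 1515 (-0.72), and -0.91 by its second probe set. After hybridisation scaling or centring on array medians, Arsb and Sgsh were past 2-fold.

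The other glycosaminoglycan enzymes differed less between the arrays. Idua, an iduronidase, stood at -0.48 and, by a dim second probe set, at 0.25. Naglu, a glucosaminidase of heparan sulfate, stood at -0.29. Ids, the iduronate sulfatase, had 1557 and 1662 (0.09), while its 2 other kept probe sets stood at -0.34 and -0.20.

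The 7 genes of lipid handling had 6 ratios below 0 and 1 above, all within 2-fold, with a median of -0.54. Psap, the precursor of the saposins that present sphingolipids to their hydrolases, read 15007 in wild-type and 9341 in knockout liver (-0.68), and -0.83 by its second probe set. Lipa, the acid lipase that frees cholesterol and fatty acids from lipoprotein lipids, had 8163 and 5059 (-0.69), with -0.98 and -0.25 by its others. Ppt1, which removes palmitate from proteins, had 1517 and 936.5 (-0.70). Its next probe set stood at -0.84 and its dimmest kept one at 0.40. Asah1, acid ceramidase, had 4833 and 3331 (-0.54), and Arsa, the sulfatase of sulfatide, had 2042 and 1654 (-0.30). Psap, Lipa, Ppt1 and Asah1 thus had knockout signals between 61.7% and 68.9% of the wild-type ones.

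The partners of cholesterol export from the lysosome stood on opposite sides of 0. Npc2, the soluble carrier, read 8006 in wild-type and 6567 in knockout liver (-0.29), and its 2 other kept probe sets stood lower, at -1.32 and -0.63. Npc1, the membrane protein that takes cholesterol from it, had 1441 and 1901 (0.40) by a single probe set.

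The 4 measured membrane proteins also divided, 2 below and 2 above 0. Cd68, or macrosialin, a heavily glycosylated protein of macrophage endosomes and lysosomes, read 1765 in wild-type and 408.1 in knockout liver, 4.33-fold lower (-2.11). Lamp1 and Lamp2, the main glycoproteins lining the lysosomal membrane, differed in direction. Lamp1 had 22091 and 17168 (-0.36) by 1 probe set, while Lamp2, which also serves chaperone-mediated autophagy, had 18610 and 22330 (0.26). The other 3 probe sets of Lamp2 ranged from 0.37 to 0.41. Scarb2, which carries glucocerebrosidase to the lysosome, had 6671 and 8963 (0.43), and 0.21 by its second probe set. The higher signals of Lamp2 and Scarb2 were therefore seen by every kept probe set, and the lower signal of Lamp1 by the one there was.

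**Figure D3:**
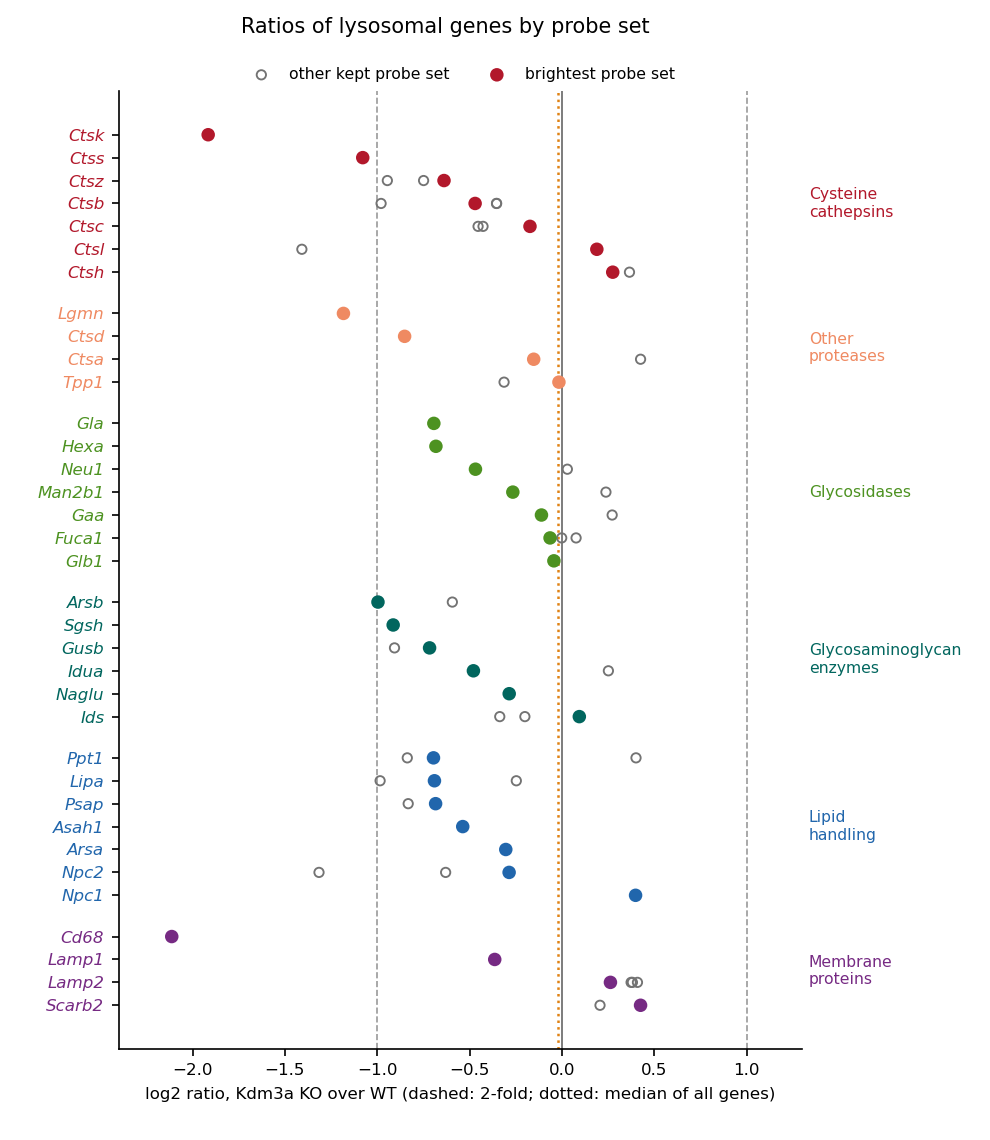
Knockout over wild-type log2 ratio for each lysosomal gene, with filled points for the brightest probe set and open points for the other kept probe sets; dashed lines mark 2-fold and the dotted line the median of all genes (-0.02). Open and filled points lie on opposite sides of 0 in Ctsl, Ctsa, Neu1, Man2b1, Gaa, Fuca1, Idua, Ids and Ppt1.

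Of the 35 genes, 21 had more than 1 kept probe set. In 9 of these every probe set was below 0, in 3 (Ctsh, Lamp2 and Scarb2) every one was above 0, and in 9 they went both ways. Under the deposited scaling and the 12 alternatives that keep the 2-fold rule, 22 of the 35 genes had a ratio below 0 wherever they could be measured, 4 (Ctsh, Lamp2, Npc1 and Scarb2) had one above 0, and 9 had both signs. Changes of floor or filter could not turn a sign, so only the scalings and the choice of probe sets bear on these counts.

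Most macrophage, matrix-cell and bile duct markers had a lower signal in the same array. For the counts that follow, 8.96% of all genes were lower and 3.83% higher by 2-fold or more. Of 23 measured macrophage markers, 14 were lower and 3 higher by 2-fold or more; the median was -1.18, and their signals summed to 80660 in wild-type and 48199 in knockout liver. The lower ones were led by Gpnmb (-4.12), and the higher genes Cd163, Marco and Timd4, known from resident macrophages, lay below the floor in wild-type liver and passed the filter by their knockout signal. Csf1r (-0.44), Adgre1 (-0.56), Clec4f (0.73) and Vsig4 (0.84), also defining markers, were above the floor on both arrays. Markers of stellate cells and fibroblasts were lower by 2-fold or more in 10 of 16 cases, higher in 0, had a median of -1.71 and summed to 45640 and 22109. Of 9 measured cholangiocyte markers, 8 were lower and 1 higher by 2-fold or more, with a median of -1.75 and sums of 6929 and 1460. The lower Krt7 (72.4), Krt19 (63.4), Sox9 (73.1) and Cldn7 (72.3) had knockout signals below the filter value and passed by their wild-type signal. So did Des (63.2) of the stellate list and Ccr2 (71.1) of the macrophage list. Probe sets of Tspan8 (-2.96 to 0.69) and of Onecut1, the higher gene (-0.87 to 1.34), went both ways. The second probe set of Epcam stood at -0.08. Hepatocyte markers, summing to 495741 and 685370, had a median of 0.46, or 0.17 with 2 of 16 below 0 after quantile normalization, and endothelial markers one of -0.31. The part of these cell types in the values of Cd68, Ctss, Ctsk, Lgmn and the other lysosomal genes was not tested, and in whole tissue fewer cells of a type and less RNA per cell cannot be told apart.

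Other genes of the lysosomal pathway, 121 measured of 138 listed, had a median closer to that of all genes than the listed 35 did. Autophagy genes included, 10 of the 121 were at least 2-fold lower, where 8.96% of all genes were, a count near the background, and 0 were at least 2-fold higher, where 3.83% were. Poly-A scaling left 4 lower and 1 higher. The median was -0.15, and 0.04 after poly-A scaling, so its sign gives no direction for these genes as a whole. The median of all genes was -0.02 and 0.16 under the same scalings. Poly-A scaling moves both medians by about the same constant, so it could not change their order. After quantile normalization, which is not a constant shift, the medians were -0.13 for these genes and 0.02 for all genes. Among 25 further hydrolases and activators, 3 were at least 2-fold lower, where 8.96% of all genes were. They were Ctse, an aspartic protease of the endosome (484.4 and 99.6, or -2.28), Galc, which cleaves galactosylceramide (-1.11), and Galns, a sulfatase of keratan sulfate (-1.03). The second probe set of Ctse stood at 1.43. Of these 3 genes, Ctse alone stayed past 2-fold after poly-A scaling, with Galc at -0.92 and Galns at -0.85, and quantile normalization left 2 genes past it. Hyal2, a hyaluronidase (0.52), and Ctso, a cathepsin (0.30), were highest, and the median was -0.27, or -0.09 after poly-A scaling. Of 23 further membrane proteins and transporters, 2 were at least 2-fold lower, a share near that of all genes. They were Gpnmb, also a macrophage marker, and Laptm5 (-1.51), a protein of blood cells whose 4 probe sets ranged from -1.51 to 0.27. Tpcn1, an ion channel (0.45), and Hgsnat, an acetyltransferase of heparan sulfate breakdown (0.20), were highest. Their median of -0.04 was 0.15 after poly-A scaling.

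Differences in the proton pump were small, and most were towards a lower signal. By their brightest probe sets all 17 measured V-ATPase subunits lay within 2-fold, with a median of -0.22. Below 0 were 14 of them, where 52.2% of all genes were, or 10 after poly-A scaling. The lowest probe set of Atp6v0b stood at -1.18, past 2-fold. Probe sets of Atp6v0a1 (-0.64 to 0.35), Atp6v1e1 (-0.07 to 0.88) and Atp6v1g1 (-0.09 to 0.29) went both ways. The subunits Atp6v1b2 (-0.78) and Atp6v1a (-0.65), which form the ATP-splitting head, were lowest, and Atp6v0e2 (0.41) and Atp6v1d (0.40) highest. Of 17 genes of mannose 6-phosphate tagging and sorting, 1 was at least 2-fold lower, where 8.96% of all genes were. It was the Golgi adaptor Gga1 (-1.06), followed by Gga3 (-0.60). The adaptor subunits Ap1b1 (0.83) and Ap1m1 (0.52, but -0.08 by its second probe set) were highest. The receptors M6pr (-0.11) and Igf2r (-0.32) stood near the group's median of -0.24. After poly-A scaling that median was -0.05, Gga1 (-0.87) was inside 2-fold and Ap1b1 past it on the higher side. Quantile normalization left 0 genes of this list past 2-fold.

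Among regulators and inhibitors, a few single genes differed by more. Rragd, a Rag GTPase that links nutrients to mTORC1, read 1250 in wild-type and 142.4 in knockout liver (-3.13), and Tfec, a relative of TFEB made in macrophages, had 270.9 and 133.1 (-1.03), inside 2-fold after poly-A scaling (-0.84). Tfeb itself (-0.09), Tfe3 (-0.17) and Mitf (-0.39) lay within 2-fold. Of that list of 17, Mcoln1, a calcium channel (0.47), and Slc38a9, an amino acid sensor (0.28), were highest, and the median of -0.10 was 0.09 after poly-A scaling. The 6 kept probe sets of Slc38a9 ranged from -0.16 to 0.97. Cstb, or stefin B, which blocks cysteine cathepsins, had 22471 and 9970 (-1.17), and -1.30 by its second probe set. It stood at -0.99 after poly-A scaling. Cst3, or cystatin C, a secreted inhibitor, had 8316 and 6604 (-0.33). Cathepsin inhibitors were measured through these genes alone, so that inhibitor and cathepsin signals can be set side by side only for them.

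**Figure D4:**
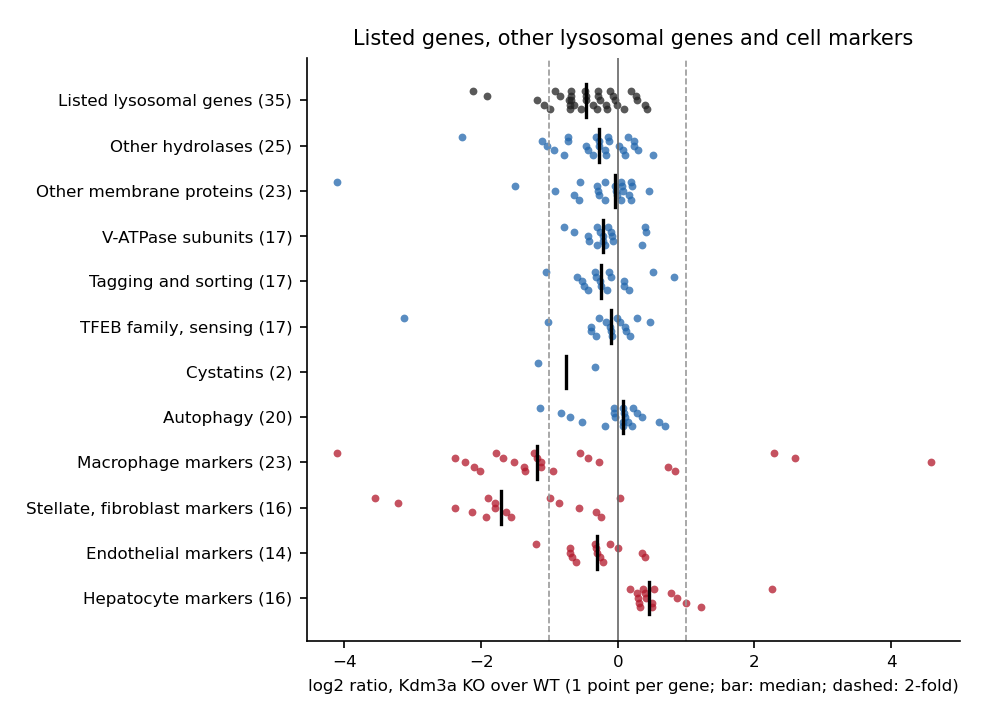
Knockout over wild-type log2 ratio for the 35 listed lysosomal genes (black), other lists of the lysosomal pathway (blue) and cell type markers (red), 1 point per gene, with a bar at each median and dashed lines at 2-fold. The median is -0.47 for the listed genes, -0.22 for V-ATPase subunits, -1.18 for macrophage markers and 0.46 for hepatocyte markers.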

How the data were processed

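Per the labels' protocols, 250 ng of total liver RNA was turned into biotin-labelled cRNA and read on Affymetrix arrays. The authors deposited linear probe-set intensity values made with MAS5, per the submitters' processing notes. The settings, build and detection calls of that step were not given in the labels used here. Trimming 2% of values from each end left a mean of 500.004 on either array, so each had been scaled to one level before deposit. Every ratio depends on that scaling.

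Of 45101 probe sets, 34945 named 1 gene through the platform annotation, 932 several and 9160 none; 64 were controls. Current names came from a RefSeq table of assembly GRCm38.p6, in which 34741 were found. The floor of 46.5 is the 40th percentile of all values. Probe sets with a mean signal of at least 73.7, the median, were kept. A gene took its brightest kept probe set. Ratios were computed with Python 3.11.15. The code was also run on simulated arrays with known folds in bright genes and little noise, which checks the code and not these ratios. Probe sets whose names end in _s_at, _x_at, _a_at or _f_at are called cross-matching here, by their names alone. Whether they match other genes was not checked, and the platform annotation gives each one read here to a single gene. The brightest probe sets of Ctsd, Ctsz, Ctsl, Lamp1, Hexa, Psap and Man2b1 end in _a_at.

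The genes, role groups, lists and alternatives were chosen with earlier results of these data known. Named genes were all listed genes, up to 2 highest and 2 lowest of each pathway list, and Kdm3a. Tfeb, Tfe3, Mitf, M6pr, Igf2r, Alb and the single macrophage markers were added for their roles, and Galns because a count of 3 included it, after its value was seen. Lists were read under each scaling. Markers of 10 cell types were summed; those not described in the results had medians of 0.18 (B and plasma cell, 5 genes), -0.33 (neutrophil, 5), -0.74 (T and NK cell, 8), -0.90 (dendritic cell, 2) and -0.17 (erythroid, 3).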

Additional observations from a re-analysis of the deposited data

How the results depend on the processing

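Settings were changed one at a time. For medians, a move was a shift beyond a limit computed from the spread between probe sets of a gene and the number of genes. That limit holds no error between arrays or animals. For a single gene a move was a shift of over 0.446. Of 112 counts and medians under 14 alternatives, 103 stayed within these limits (counts within 1.5 times). Many of the 112 could not have moved. A lower floor, no floor or no filter left each count and median of the listed genes as it was. For role group medians, the limit was wider than the constant shift made by scaling on controls or array medians. The median of the listed genes was -0.60 after hybridisation scaling, -0.28 after poly-A scaling and -0.33 with a filter at the 70th percentile, which leaves out Ctsk, Gla and Sgsh. The count of genes lower past the threshold was 2 after poly-A scaling, 14 at 1.5-fold and 2 at 3-fold. The glycosidase median was -0.043 when kept probe sets were averaged. Without cross-matching probe sets the median was -0.15 for the other proteases and -0.77 for the cysteine cathepsins, since Ctsd and Ctsz drop out and Ctsl is then read by its dim probe set. Of 411 single ratios under 12 alternatives, 406 stayed within the limit and 0 of those past 2-fold changed sign. The others were Ctsk (-1.44, floor at the 60th percentile), Ctsl (-0.61 averaged, -1.41 without cross-matching probe sets), Npc2 (-0.74, averaged) and Man2b1 (0.24, without cross-matching probe sets). Many of the 411 ratios could not have moved. A lower floor, no floor or another filter left each ratio as it was. Scaling on hybridisation controls, poly-A controls or array medians shifted every listed gene by one constant (-0.13, 0.18 and -0.09), less than 0.446. No paired analysis was possible because each genotype has 1 array. The number of arrays limits the precision of every value, and Ctsk, Gla and Sgsh, with signals nearest to the floor, are least well measured.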

Other observations

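Autophagy genes, which deliver cargo to the lysosome, had a median near that of all genes. Of 20 measured, 1 was at least 2-fold lower and 0 were higher, where 8.96% and 3.83% of all genes were. The median log2 ratio was 0.08. Poly-A scaling gave 0.27 and hybridisation scaling -0.05, so the sign of the median gives no direction. The medians of all genes under these scalings were 0.16 and -0.16. Both scalings move the 2 medians by about the same constant, so they could not change their order. After quantile normalization the medians were 0.10 for autophagy genes and 0.02 for all genes. Atg12, a ubiquitin-like conjugation protein, read 1605 in wild-type and 731.5 in knockout liver (-1.13), though its second probe set stood at -0.23 and poly-A scaling gave -0.95, inside 2-fold. Sqstm1, or p62, a cargo receptor, had 10790 and 6059 (-0.83). Atg3, which joins the conjugation cascade, had 6578 and 10625 (0.69), and Uvrag, a partner of the autophagy lipid kinase, had 988.2 and 1507 (0.61). These were the highest of the list at the deposited scaling. The second probe set of Sqstm1 stood at 0.23. The difference between autophagy genes and lysosomal hydrolases was not tested, since each genotype has 1 array.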
